A study of Mus musculus with 46 samples.

Results

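The pyruvate dehydrogenase complex and its kinases were followed in mouse liver through 8 genes of the 16593 genes named on the array: the subunits Pdha1, Pdhb, Dlat, Dld and Pdhx, and the kinases Pdk1, Pdk2 and Pdk4. Every probe that the platform annotation gives to 1 of these symbols was taken, which made 9 probes, 2 of them for Pdhb. Liver RNA came from 46 male C57BL6/J mice at 8 months of age, with 1 array per mouse. The groups were Rapa + DR (12 mice), given 40% dietary restriction with 14 ppm rapamycin in the food, DR (11 mice), given 40% dietary restriction alone, Rapa (12 mice), given 14 ppm rapamycin in food eaten freely, and AL (11 mice), fed ad libitum without drug. The labels give no altered allele, the diets ran for 6 months from 2 months of age, and the rapamycin was microencapsulated. The 40% is the labels' figure, and the study's methods describe the size of the restricted ration in ways that conflict. Rapamycin is an inhibitor of the growth-regulating kinase mTOR. Restricted mice received their food once a day, whereas the freely fed mice always had it, and the hour of harvest is not given in the sources used here.

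The complex sits in mitochondria and turns pyruvate, the end product of glycolysis, into acetyl-CoA, which enters the citric acid cycle or fat synthesis. Its E1 enzyme is built from an alpha subunit (Pdha1) and a beta subunit (Pdhb), E2 (Dlat) carries the lipoyl groups that pick up the acetyl unit, E3 (Dld) reoxidises those groups, and Pdhx anchors E3 to the core. Kinases of the Pdk family switch the complex off by phosphorylating E1 alpha, phosphatases switch it on again, and in the liver this keeps pyruvate for glucose synthesis during fasting. Pdk4 is known as the kinase that rises with fasting and fatty acid use, Pdk2 as a widely expressed kinase, and Pdk1 as a kinase induced by low oxygen.

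Levels are log2 probe signals, set to the same mean and spread on every array. A probe counted as above background on an array where its signal lay beyond the 0.02 upper tail of the dim signals there, and a probe was tested if this held on at least 1 array. A probe was called changed where the Benjamini-Hochberg adjusted p of limma over 16446 tested probes was under 0.05 and the group medians differed by over 15%. Adjusted p-values below come from that fit unless an alternative setting or an array left out is named. Pdhx was above background on 0 of 46 arrays, its median signal was 0.862 of the background limit, and it has no level here and was not tested. That left 8 tested probes of 7 genes. Pdk1, Pdha1 and both Pdhb probes were above background on 46 arrays, Dlat and Pdk2 on 45, Dld on 44 and Pdk4 on 38. The share of all probes above background was 37.2 to 48.2% in Rapa + DR, 33.7 to 45% in DR, 33.4 to 44.9% in Rapa and 35.4 to 44.9% in AL. The liver label was met by the hepatocyte genes, with 5 of 8 markers above background on every array, whereas the Alb probe was above it on 18 arrays and 2 markers were at background throughout. In whole tissue, fewer cells of a type and less RNA per cell cannot be told apart.

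Counted over the members, the changes ran upward. In Rapa + DR against AL, 5 of the 8 probes were higher, against a background of 15.7% of all tested probes, and 0 were lower, against 8.74%. In DR against AL, 4 probes were higher (background 9.54%) and 1 was lower (5.61%). In Rapa against AL, 3 were higher (7.44%) and 0 lower (4.97%). In Rapa + DR against DR, 3 were higher, where the background was 1.57%, and 0 were lower (0.268%), and in Rapa + DR against Rapa, 4 were higher (10.2%) and 0 lower (5.26%). In DR against Rapa, 1 was higher (5.89%) and 1 was lower (3.81%). At an unadjusted p under 0.05, limma placed 0 member probes lower in each of the 4 comparisons with no lower call. The median log2 change of the 8 probes was 0.51 in Rapa + DR against AL, 0.21 in DR against AL and 0.24 in Rapa against AL, while the median over all tested probes was -0.0072, -0.0063 and -0.0042. Counted by gene, with Pdhb once, 4 of 7 were higher in Rapa + DR against AL, 3 in DR and 2 in Rapa. Every tested member probe was above background on at least 6 arrays. Of 12648 such probes, 2598 were higher in Rapa + DR against AL, 1625 in DR and 1303 in Rapa. The members were chosen with earlier results of these data known. The 3 comparisons with AL share the same 11 AL mice. The plot of changes by probe sets the 6 pairwise comparisons side by side.

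**Figure D1:**
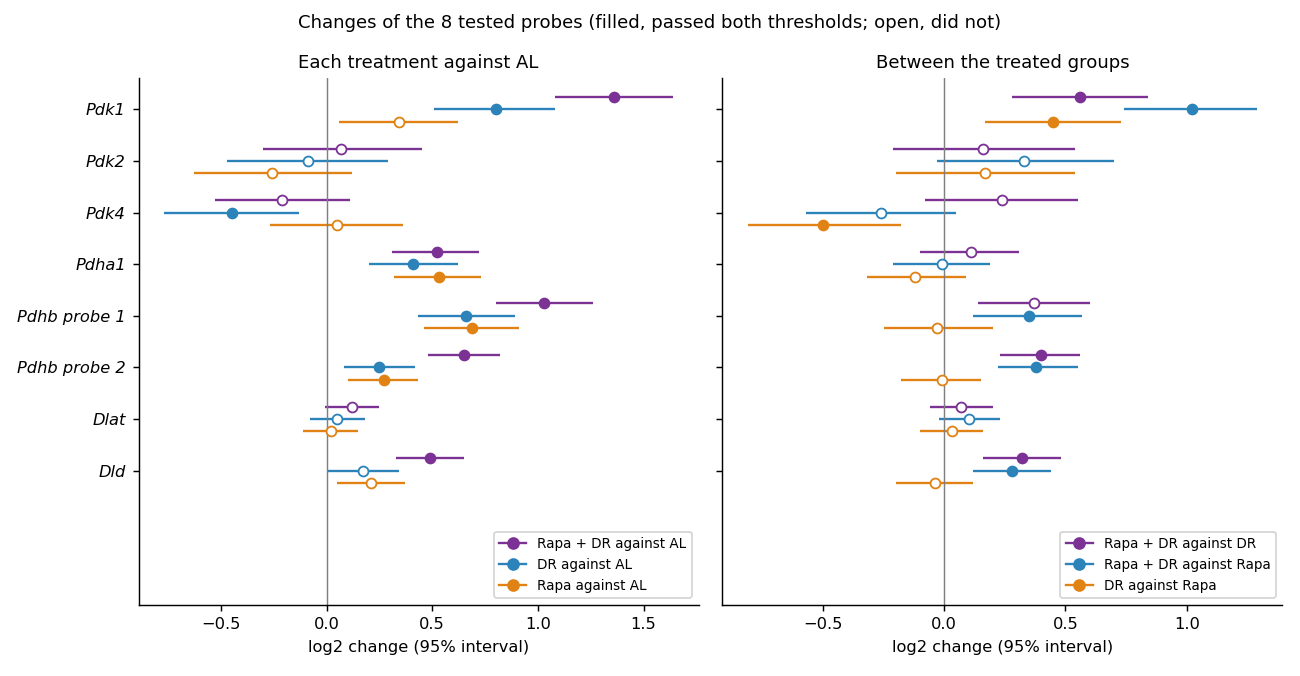
Log2 change of each tested probe with its 95% interval, each treatment against AL on the left and the treated groups against each other on the right. Filled points passed both thresholds, among them Pdk1 at 1.36 in Rapa + DR against AL and Pdk4 at -0.45 in DR against AL, and open points did not.

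Sequence upstream of 3 members is given because these genes moved differently: Pdk1 was higher in both restricted groups, Pdha1 in all 3 treated groups, and Pdk4 was lower in DR. The stretch runs from 250 to 10 bases before the start in the RefSeq promoter table on GRCm38.p6, 5′ to 3′, 241 bases each (the upstream one of the table's 2 starts for Pdk1 was used, it lies just inside the gene's RefSeq span, and the stretch ends where that span begins), and capitals mark a match to any of the motifs searched.
Pdk1, chr2:71872974-71873214 (+ strand): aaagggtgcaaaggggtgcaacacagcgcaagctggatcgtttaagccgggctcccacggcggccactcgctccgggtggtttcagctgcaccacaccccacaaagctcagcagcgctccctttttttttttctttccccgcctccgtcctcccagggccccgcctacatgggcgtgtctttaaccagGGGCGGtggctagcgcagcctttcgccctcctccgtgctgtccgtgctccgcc
Pdha1, chrX:160138440-160138680 (- strand): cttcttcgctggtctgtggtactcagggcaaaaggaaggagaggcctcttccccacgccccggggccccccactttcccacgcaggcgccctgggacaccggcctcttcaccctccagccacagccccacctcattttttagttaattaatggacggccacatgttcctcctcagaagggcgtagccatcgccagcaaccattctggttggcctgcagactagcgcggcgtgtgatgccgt
Pdk4, chr6:5496288-5496528 (- strand): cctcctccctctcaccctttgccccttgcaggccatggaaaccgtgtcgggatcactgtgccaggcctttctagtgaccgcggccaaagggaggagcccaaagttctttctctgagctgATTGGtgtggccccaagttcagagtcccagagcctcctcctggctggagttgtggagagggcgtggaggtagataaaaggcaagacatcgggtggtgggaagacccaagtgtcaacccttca
Both strands were searched for the CCAAT box (CCAAT), the GC box (GGGCGG), the E-box (CACGTG) and the forkhead core (TGTTTAC). The search also took the nuclear receptor half-site (AGGTCA) and ACGTG, 1 form of the hypoxia response core, which overlaps the E-box. The GCGTG form of that core was not searched, so it has no capitals and no share of windows here, though its letters stand in all 3 stretches. Pdk1 held 1 GC box, which 31.4% of 32851 RefSeq promoter windows of that length hold. Pdk4 held 1 CCAAT box, found in 33.1% of windows, and Pdha1 held 0 matches. The E-box was in 5.73% of windows, ACGTG in 16%, the forkhead core in 3.07% and the nuclear receptor half-site in 13.6%. None of these searched letters stood in the 3 stretches.

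Among the kinases, Pdk1 had the largest log2 changes in Rapa + DR and in DR against AL. Its log2 level ran between 9.00 and 9.89 with a median of 9.56 in the 12 Rapa + DR mice, between 8.43 and 9.27 with a median of 8.93 in the 11 DR mice, between 7.54 and 9.10 with a median of 8.57 in the 12 Rapa mice, and between 7.77 and 8.72 with a median of 7.98 in the 11 AL mice. The lowest Rapa + DR mouse therefore lay above the highest AL mouse, and 9 of 11 DR mice did too. Pdk1 RNA signal was 2.57-fold in Rapa + DR against AL (95% interval 2.11 to 3.12, log2 change 1.36 ± 0.14 SE, adjusted p = 2.18e-10). In DR against AL it was 1.74-fold (1.43 to 2.12, adjusted p = 4.27e-05). By log2 increase in Rapa + DR against AL, Pdk1 stood at rank 53 of the 16446 tested probes.

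The order of the Pdk1 levels was Rapa + DR, DR, Rapa, AL. Rapa + DR exceeded DR 1.48-fold (95% interval 1.22 to 1.79, adjusted p = 0.0172), with 12 of 12 Rapa + DR mice above the DR median, and exceeded Rapa 2.02-fold (1.67 to 2.44, adjusted p = 1.64e-07). DR exceeded Rapa 1.37-fold (1.13 to 1.66, adjusted p = 0.0216). Rapa and AL, neighbours in that order, differed 1.27-fold (1.05 to 1.54) and did not pass (adjusted p = 0.087), though 10 of 12 Rapa mice lay above the AL median. That comparison passed with array weights (log2 change 0.44, adjusted p = 0.013) and when AL replicate 11, Rapa replicate 2 or Rapa replicate 3 was left out (log2 changes of 0.40 to 0.43, adjusted p 0.0179 to 0.0411), and DR against Rapa missed the threshold without Rapa replicate 2 (0.37, adjusted p = 0.0508) or Rapa replicate 3 (0.40, adjusted p = 0.0509) and with the array SD as a covariate (0.37, adjusted p = 0.0649). Rapa replicate 2 and Rapa replicate 3 held the lowest Pdk1 levels of their group, 7.54 and 7.83, and AL replicate 11 the highest of AL, 8.72. The background level of the arrays also ran lower in Rapa + DR (mean 75.0 signal units) than in DR (86.5), and with that level in the model the 1.48-fold difference between these groups became a log2 change of 0.50 (adjusted p = 0.0938). With the replicate number as a block it was 0.54 (adjusted p = 0.0551).

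**Figure D2:**
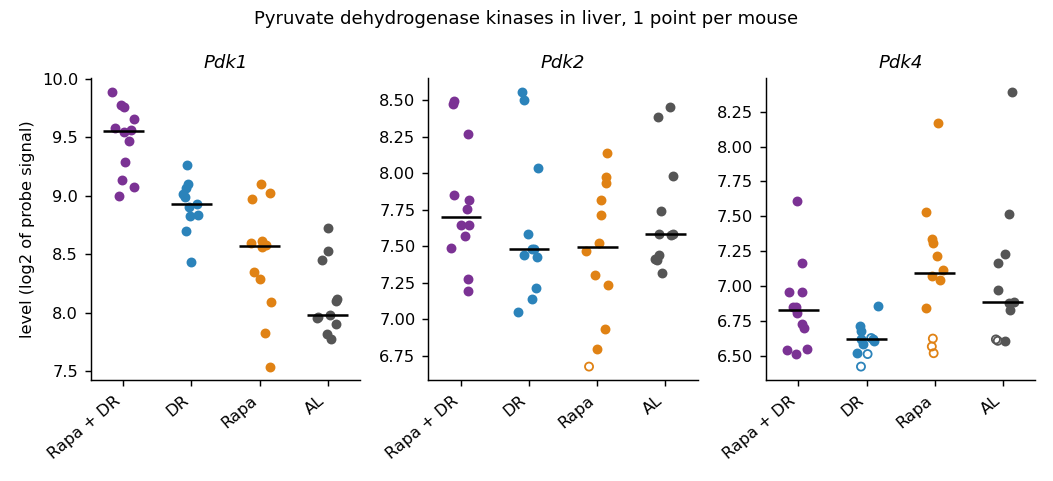
Log2 level of the 3 kinases in each mouse, by group, with the group median as a line and open points where the probe was not above background on that array. For Pdk1 the 12 Rapa + DR mice, at 9.00 to 9.89, all lie above the 11 AL mice, at 7.77 to 8.72, and for Pdk4 the 11 DR mice lie within 6.42 to 6.86.

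Pdk4 went the other way in DR, its only call against AL. Its log2 level ran between 6.51 and 7.61 with a median of 6.83 in Rapa + DR, between 6.42 and 6.86 with a median of 6.62 in DR, between 6.52 and 8.17 with a median of 7.09 in Rapa, and between 6.61 and 8.39 with a median of 6.89 in AL. The DR mice were the tightest group (SD 0.12, against 0.31 in Rapa + DR, 0.46 in Rapa and 0.52 in AL), and all 11 lay below the AL median. Pdk4 fell to 0.732 of the AL signal in DR (95% interval 0.585 to 0.916, log2 change -0.45 ± 0.16 SE, adjusted p = 0.042) and to 0.708 of the Rapa signal (0.569 to 0.882, adjusted p = 0.0272). The probe is dim, above background on 12 of 12 Rapa + DR arrays, 8 of 11 DR arrays, 9 of 12 Rapa arrays and 9 of 11 AL arrays, so the lowest values are close to the floor of the assay. Array background averaged 75.0 signal units in Rapa + DR, 86.5 in DR, 78.9 in Rapa and 84.9 in AL, so these counts do not rank the groups. A level of 6.51 counted as above background in Rapa + DR replicate 1, and 6.63 in DR replicate 11 did not.

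The fall of Pdk4 in DR against AL lay close to the threshold. It missed the threshold without any 1 of 12 arrays (AL replicates 4, 9, 10 and 11 and DR replicates 1, 2, 3, 6, 7, 8, 9 and 10), with log2 changes of -0.46 to -0.32 and adjusted p 0.051 to 0.105, and the largest shift came from AL replicate 11, whose level of 8.39 was the highest of all 46 mice. Without Rapa replicate 4, at 8.17, DR against Rapa gave -0.40 (adjusted p = 0.0645). In Rapa + DR against AL the change was -0.21 ± 0.16 SE (95% interval -0.53 to 0.11, adjusted p = 0.292), and in Rapa against AL 0.05 ± 0.16 SE (-0.27 to 0.36, adjusted p = 0.892). Rapa + DR and DR did not differ past the threshold (0.24, 95% interval -0.08 to 0.55, adjusted p = 0.45). Rapa + DR against Rapa gave -0.26 (adjusted p = 0.205) and was called lower with the array SD as a covariate (-0.47, adjusted p = 0.0179). Under the 10 alternatives Rapa + DR against AL ran between -0.41 and -0.1, with adjusted p as low as 0.0304 and no call.

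Pdk2 was called in none of the comparisons. Its log2 level ran between 7.19 and 8.49 in Rapa + DR, between 7.05 and 8.55 in DR, between 6.68 and 8.14 in Rapa and between 7.32 and 8.45 in AL, so the 4 groups overlapped over most of their range. The lowest unadjusted p was 0.0743, in Rapa + DR against Rapa (log2 change 0.33, 95% interval -0.03 to 0.70). Within groups Pdk2 had an r of 0.65 with the array SD, and with the array SD as a covariate that change was -0.011 (adjusted p = 0.973). Against AL the changes were 0.07 in Rapa + DR (-0.30 to 0.45), -0.09 in DR (-0.47 to 0.29) and -0.26 in Rapa (-0.63 to 0.12). Pdk3, the fourth kinase of the family, was above background on 0 arrays.

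The E1 genes were higher in every treated group. Pdha1, the subunit that the kinases phosphorylate, ran between 10.07 and 10.64 (median 10.38) in Rapa + DR, between 9.68 and 10.55 (10.30) in DR, between 10.08 and 10.80 (10.33) in Rapa and between 9.18 and 10.33 (9.85) in AL. All 12 Rapa + DR mice, 10 of 11 DR mice and 12 of 12 Rapa mice lay above the AL median, and the range of each treated group overlapped that of AL, whose highest mouse was replicate 11. Pdha1 was 1.43-fold in Rapa + DR against AL (95% interval 1.24 to 1.65, adjusted p = 8.23e-05), 1.33-fold in DR against AL (1.15 to 1.53, adjusted p = 0.00372) and 1.44-fold in Rapa against AL (1.25 to 1.66, adjusted p = 0.000296). The last of these missed the threshold where arrays were centred and not divided by their SD (log2 change 0.49, adjusted p = 0.0745). The 3 treated groups could not be ordered: Rapa + DR against DR gave 1.08-fold (0.935 to 1.24), Rapa + DR against Rapa 0.994-fold (0.864 to 1.14) and DR against Rapa 0.921-fold (0.799 to 1.06).

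Whether rapamycin acted alike in restricted and freely fed mice was asked of each probe by the interaction, the rapamycin change under restriction less the rapamycin change under free feeding. The drug was in the food, of which restricted mice received less. The study's text gives liver rapamycin as not different between Rapa and Rapa + DR, and its supplementary legend gives it as lower in Rapa + DR. Diet and drug exposure cannot be told apart in this interaction. None of the 8 member probes passed in limma, where 1.14% of all probes were called higher and 1.03% lower, and the unmoderated fit of the methods gave 0 as well. At an unadjusted p under 0.05 there was 1, Pdha1, with an interaction of -0.42 ± 0.14 SE (95% interval -0.71 to -0.13, p = 0.00604, adjusted p = 0.107). With arrays weighted by their quality the adjusted p of Pdha1 was 0.00937, and with the array SD as a covariate 0.0476. For Pdk1 the interaction was 0.22 (95% interval -0.18 to 0.61, adjusted p = 0.595).

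Pdhb, the beta subunit of E1, was read by 2 probes, and both were called higher in all 3 treated groups against AL. The brighter probe ran between 7.98 and 8.65 (median 8.32) in Rapa + DR, between 7.51 and 8.35 (7.96) in DR, between 7.59 and 8.50 (7.93) in Rapa and between 6.70 and 8.03 (7.24) in AL. A single AL mouse, replicate 3 at 8.03, overlapped the Rapa + DR range. The change was 2.05-fold in Rapa + DR against AL (95% interval 1.75 to 2.40, adjusted p = 1.21e-09), 1.58-fold in DR (1.34 to 1.86, adjusted p = 3.39e-05) and 1.61-fold in Rapa (1.37 to 1.88, adjusted p = 3.91e-05). The dimmer probe ran between 7.20 and 7.78 (median 7.53) in Rapa + DR and between 6.68 and 7.15 (6.77) in AL, with no overlap, and between 6.77 and 7.44 (7.09) in DR and 6.81 and 7.65 (7.06) in Rapa. Its changes were smaller: 1.57-fold in Rapa + DR against AL (1.4 to 1.76, adjusted p = 4.67e-08), 1.19-fold in DR (1.06 to 1.34, adjusted p = 0.0306) and 1.2-fold in Rapa (1.07 to 1.35, adjusted p = 0.0229).

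In the order of Pdhb levels Rapa + DR came first, and DR and Rapa did not differ past the threshold (0.982-fold, 95% interval 0.839 to 1.15, for the brighter probe and 0.990-fold, 0.881 to 1.11, for the dimmer). Rapa + DR exceeded Rapa on both probes, 1.27-fold (adjusted p = 0.0165) on the brighter and 1.3-fold (adjusted p = 0.000421) on the dimmer. On the brighter probe that call was lost with quantile normalization (log2 change 0.26, adjusted p = 0.102) and normexp correction (0.27, adjusted p = 0.105). Rapa + DR exceeded DR 1.32-fold on the dimmer probe (1.17 to 1.48, adjusted p = 0.00571), while the brighter gave 1.29-fold (1.11 to 1.52) and missed the threshold (adjusted p = 0.0595). The brighter probe passed there under 4 of 10 alternatives, which were centring without division by the SD (adjusted p = 0.0446), array weights (0.0228), the background level as a covariate (0.0315) and the array SD as a covariate (0.0468). It also passed without any 1 of 8 arrays (AL replicates 3 and 8, DR replicates 4, 5 and 7, Rapa replicate 7 and Rapa + DR replicates 4 and 11), with log2 changes of 0.37 to 0.42 and adjusted p 0.0337 to 0.0499. The dimmer probe in DR against AL missed the threshold with quantile normalization (0.21, adjusted p = 0.0512), with the array SD as a covariate (0.18, adjusted p = 0.104) and without any 1 of 8 arrays (AL replicates 4, 6, 8 and 10 and DR replicates 1, 4, 5 and 6; log2 changes of 0.22 to 0.24, adjusted p 0.0507 to 0.0722), and in Rapa against AL without Rapa replicate 7 (0.23) or Rapa replicate 11 (0.22, adjusted p up to 0.0526).

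**Figure D3:**
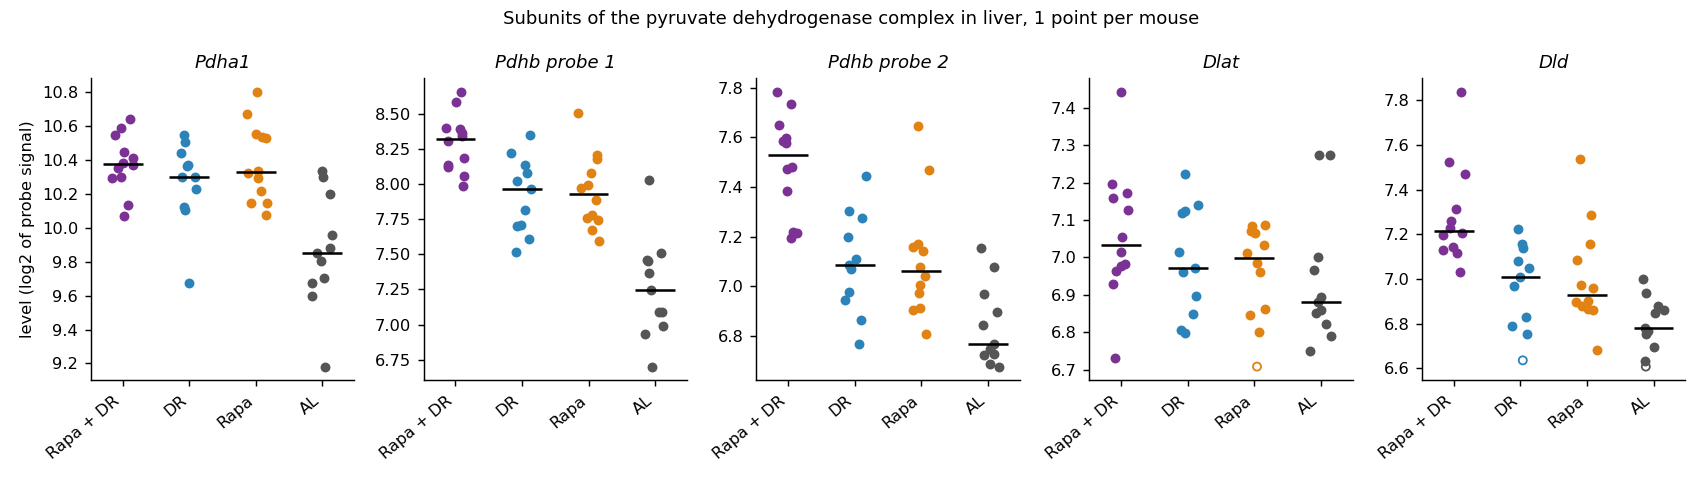
Log2 level of the 5 tested subunit probes in each mouse, by group, with the group median as a line and open points where the probe was not above background. Pdhb probe 1 is the brighter and probe 2 the dimmer one, and for Pdhb probe 2 and Dld the 12 Rapa + DR mice all lie above the 11 AL mice.

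Dld, the E3 enzyme that the complex shares with other dehydrogenases, was called higher in Rapa + DR against each of the other groups, and neither DR nor Rapa passed against AL. Its log2 level ran between 7.03 and 7.84 (median 7.22) in Rapa + DR, between 6.64 and 7.22 (7.01) in DR, between 6.68 and 7.54 (6.93) in Rapa and between 6.61 and 7.00 (6.78) in AL. All 12 Rapa + DR mice lay above every AL mouse. The change was 1.4-fold in Rapa + DR against AL (95% interval 1.25 to 1.57, adjusted p = 5.03e-06), 1.25-fold against DR (1.12 to 1.4, adjusted p = 0.0191) and 1.21-fold against Rapa (1.09 to 1.36, adjusted p = 0.00682). In DR against AL it was 1.12-fold (adjusted p = 0.156), which passed with array weights (log2 change 0.19, adjusted p = 0.0461), and in Rapa against AL 1.16-fold (1.03 to 1.29, adjusted p = 0.0712), and the interaction was 0.11 (95% interval -0.12 to 0.34, adjusted p = 0.656).

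Dld is close to background, and within groups it followed the spread of the array: over the 46 arrays its deviation from the group mean had a Pearson r of 0.74 with that of the array SD, which averaged 1.41 in Rapa + DR, 1.377 in DR, 1.276 in Rapa and 1.283 in AL. With the array SD in the model, Dld was 0.33 higher on the log2 scale in Rapa + DR against AL (adjusted p = 2.34e-05) and 0.28 higher against DR (adjusted p = 0.00187), and 0.11 against Rapa (adjusted p = 0.18). Its median difference from DR, 0.21 on the log2 scale, is just past 15%. The call was lost with quantile normalization and with normexp correction, where the adjusted p stayed low (0.00934 and 0.00971) and the medians were less than 15% apart, with the replicate block (adjusted p = 0.0604), and without any 1 of 11 arrays (DR replicates 3, 4, 7, 10 and 11 and Rapa + DR replicates 2, 3, 4, 6, 7 and 9), with log2 changes of 0.27 to 0.33 and adjusted p 0.0241 to 0.054. The same r with the array SD was 0.29 for Pdk1, 0.34 for Pdha1, -0.05 for the brighter and 0.43 for the dimmer Pdhb probe, 0.52 for Dlat, 0.65 for Pdk2 and 0.47 for Pdk4.

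Dlat, the E2 core enzyme, was called in none of the comparisons, and the lowest unadjusted p was 0.0709. Its log2 level ran between 6.73 and 7.44 in Rapa + DR, between 6.80 and 7.22 in DR, between 6.71 and 7.09 in Rapa and between 6.75 and 7.28 in AL. The intervals were narrow, with 1.09-fold in Rapa + DR against AL (0.993 to 1.19), 1.03-fold in DR (0.943 to 1.14) and 1.01-fold in Rapa (0.924 to 1.11), but the probe's median signal is only 1.35 times the background limit, and a dim probe understates a change in RNA.

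Within groups, after each group's mean was taken off, the members varied together to different degrees over the 46 arrays, which share their normalization. Pdk1 went with Dlat (r = 0.66), Pdha1 (r = 0.55) and the brighter Pdhb probe (r = 0.43). Pdha1 and Dld had r = 0.59, Dlat and Pdk2 r = 0.62, Dld and Pdk2 r = 0.60, and the 2 Pdhb probes r = 0.58. The brighter Pdhb probe had r = 0.01 with Dld and -0.01 with Dlat. Dlat, Pdk2 and Dld also went with the array SD (r = 0.52, 0.65 and 0.74). The part of array scaling in the r between members was not tested. Among all tested probes, those most like Pdk1 were Sucnr1, the succinate receptor (r = 0.80), Pklr, the pyruvate kinase of liver (r = 0.78), and Acsm5, a mitochondrial acyl-CoA synthetase (r = 0.78). Those most like the brighter Pdhb probe were Suclg1, a subunit of succinyl-CoA ligase in the citric acid cycle (r = 0.78), Tmed4 (r = 0.77) and Gnas (r = 0.77), and those most like the dimmer were Commd1 (r = 0.75), Hprt (r = 0.73) and Pon3 (r = 0.72). Those most like Pdha1 were Tspan12 (r = 0.86), Sypl (r = 0.85) and Pnpla8 (r = 0.84).

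The genes that set the complex back to work or load it with lipoic acid were not called. Of 7 listed symbols, among them an older name of Pdp1, 5 were tested, and 0 passed in Rapa + DR, DR or Rapa against AL. At an unadjusted p under 0.05 in limma there were 2, 1 and 0. The phosphatase Pdp1 was above background on 2 arrays and Lipt1 on 21, so a change in either could go unseen. Lias, which makes lipoic acid, averaged 10.05 in DR and 9.90 in AL (log2 change 0.16, adjusted p = 0.102). Lipt2, which acts in lipoylation, was above background on 5 arrays (0.08 in Rapa + DR against AL, adjusted p = 0.0457 with medians less than 15% apart). Pdp2, a phosphatase of E1 alpha, named here after its values were seen, was above background on 46 arrays and averaged 10.22 in Rapa + DR, 10.36 in DR, 10.28 in Rapa and 10.27 in AL (adjusted p = 0.677, 0.543 and 0.956 for the treated groups against AL, in that order).

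Against AL, more genes of pyruvate supply and use were lower than higher. Of 10 tested, 2 were higher (background 15.7%) and 5 lower (8.74%) in Rapa + DR against AL, 1 higher (9.54%) and 3 lower (5.61%) in DR, and 0 higher (7.44%) and 3 lower (4.97%) in Rapa, with median log2 changes of -0.21, -0.32 and -0.19. In Rapa + DR against Rapa, the calls were split evenly, at 3 higher (10.2%) and 3 lower (5.26%), and the median change of the list was 0.15. Pck1, the enzyme that commits oxaloacetate to glucose synthesis, averaged 8.02 in Rapa + DR, 7.54 in DR and 6.77 in AL (log2 changes 1.24 and 0.76, adjusted p = 5.27e-08 and 0.000613). Acly, which frees acetyl-CoA for fat synthesis, averaged 11.57 in Rapa + DR, 11.31 in DR and 12.29 in AL (-0.72, adjusted p = 0.00266, and -0.98, adjusted p = 0.000237). Ldha, lactate dehydrogenase, was -0.59 in Rapa + DR against AL (adjusted p = 0.00038), and Gpt, which swaps pyruvate and alanine, was -0.53 in Rapa against AL (adjusted p = 0.000434).

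Genes of the complexes built like pyruvate dehydrogenase, or sharing its Dld, went in both directions. The list also held Bckdk, the kinase of the branched-chain dehydrogenase, and Ppm1k, its phosphatase, which are not subunits. Bckdk was among the lower calls against AL (log2 changes -0.26 in Rapa + DR, -0.25 in DR and -0.27 in Rapa). Ppm1k was among the higher calls in Rapa + DR (0.43). Of 11 tested, against the same backgrounds, 3 were higher and 4 lower in Rapa + DR against AL, 0 higher and 2 lower in DR, and 0 higher and 3 lower in Rapa. Gldc, the decarboxylase of the glycine cleavage system, averaged 11.26 in Rapa + DR, 11.33 in DR and 12.39 in AL (-1.13, adjusted p = 2.81e-11, and -1.06, adjusted p = 7.05e-10). Ogdh, the E1 of the oxoglutarate dehydrogenase complex, fell by 0.58 on the log2 scale in Rapa against AL (adjusted p = 1.85e-05). Bckdhb and Dbt, subunits of the branched-chain dehydrogenase, were 0.54 and 0.53 higher in Rapa + DR against AL (adjusted p = 0.000148 and 0.00182). In Rapa against AL Bckdhb was -0.28 and Dbt 0.28, and neither was called. Bckdha, a further subunit of that dehydrogenase, was lower in Rapa against AL (-0.42, adjusted p = 3.52e-05). In Rapa + DR against AL Bckdha was not called (-0.14, adjusted p = 0.107).

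Pdk4 is known to rise in the fasting liver beside genes of fatty acid oxidation and glucocorticoid response, and 15 such genes were tested next to it. Of these, 8 were higher in Rapa + DR against AL (background 15.7%) and 10 in DR against AL (9.54%), and 0 were lower in either, whereas Pdk4 was lower in DR. In Rapa against AL, 0 passed in either direction, and 1 had an unadjusted p under 0.05 in limma. The median log2 change was 0.53 in Rapa + DR and 0.56 in DR. Cyp4a14, a fatty acid hydroxylase and a target of the receptor PPAR alpha, averaged 12.39 in Rapa + DR, 12.98 in DR and 9.61 in AL (log2 changes 2.78 and 3.37, adjusted p = 1.73e-05 and 2.48e-06). Per1, a clock gene that glucocorticoids induce, was 1.56 higher in Rapa + DR and 1.66 higher in DR (adjusted p = 2.62e-09 and 3.02e-09), and Fkbp5, a glucocorticoid target, 1.54 and 1.15 higher (adjusted p = 2.23e-08 and 2.34e-05). Acot1, an acyl-CoA thioesterase, was 1.1 higher in DR (adjusted p = 0.0052), and in Rapa + DR its change of 0.56 missed the threshold (adjusted p = 0.117).

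**Figure D4:**
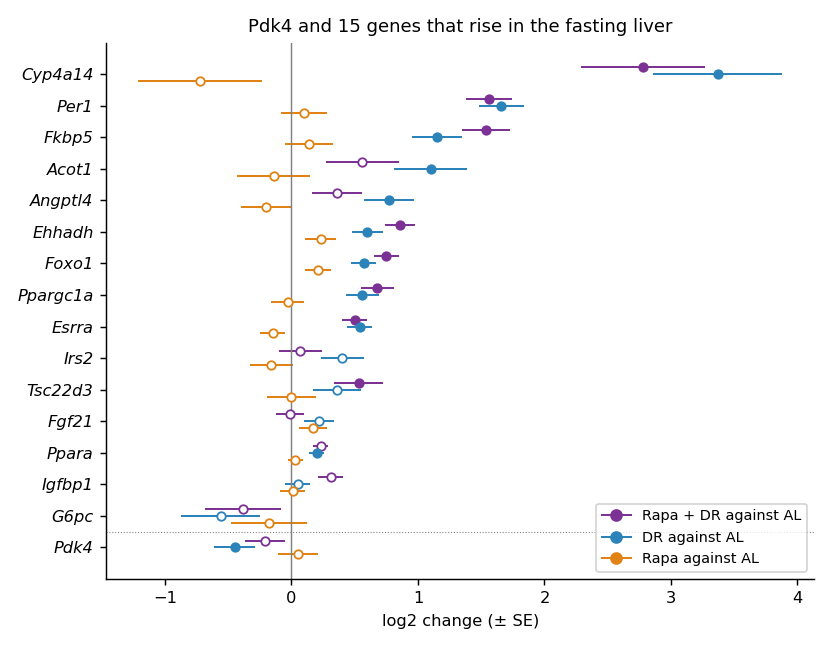
Log2 change (± SE) of 15 genes that rise in the fasting liver and, below the dotted line, of Pdk4, in each treated group against AL, with filled points where both thresholds were passed. In DR against AL 10 of the 15 genes are filled and to the right, led by Cyp4a14 at 3.37, and Pdk4 is filled at -0.45.

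Some markers of other liver cells were lower beside these changes, and hepatocyte markers were called in both directions. Of 4 Kupffer cell and macrophage markers, 1 was lower in each treated group against AL, Clec4f, with log2 changes of -0.70 in Rapa + DR (background of lower calls 8.74%), -0.54 in DR (5.61%) and -0.61 in Rapa (4.97%). Vsig4, Marco and Adgre1 were not called against AL. They were at -0.22, 0.13 and 0.07 in Rapa + DR, -0.03, -0.09 and -0.10 in DR, and -0.15, -0.06 and -0.03 in Rapa. Of 6 endothelial markers, 1 was lower in Rapa + DR (Clec4g, -0.37), 0 in DR and 2 in Rapa (Stab2, -0.41, and Clec4g, -0.33). At an unadjusted p under 0.05 in limma, 1 endothelial marker differed in DR, Pecam1, which was 0.13 higher (p = 0.0425). Pecam1 was also 0.15 higher in Rapa + DR (p = 0.0227) and 0.13 higher in Rapa (p = 0.0421), and was not called. Of 3 erythroid markers, 1 was lower in Rapa + DR and in DR (Alas2, -1.15 and -1.04). Hbb-bt was 0.47 higher in Rapa + DR against AL and was not called (limma p = 0.041, adjusted p = 0.0906). The mean log2 level of the Kupffer and macrophage list ran between 7.05 and 7.78 in Rapa + DR, 6.95 and 7.71 in DR, 7.14 and 7.65 in Rapa and 7.44 and 7.91 in AL. Of 6 hepatocyte markers tested, 1 was higher (Cps1, 0.65, background 15.7%) and 1 lower (Apoa1, -0.73, background 8.74%) in Rapa + DR against AL. In DR 1 was higher (Alb, 0.19, background 9.54%) and 0 lower, and in Rapa 0 were called. The part of cell composition in the member changes was not tested.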

How the data were processed

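Total RNA of frozen liver was hybridised to Illumina Mouse Ref8 v2.0 arrays. The authors read them with Genome Studio 1.6, took log2 signals, subtracted the array mean and divided by the array SD. The authors thus deposited each value as a z score, with no unit. Another table holds 92 per-sample columns that match no label and was not used here.

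Signals lie on a grid of 0.1, which gave back each array's SD. z-scores were multiplied by the mean SD (1.337) and the mean log2 signal (7.046) was added. No background was subtracted, so a dim probe understates a change. The background limit of an array was its commonest dim signal plus the normal deviate of an upper tail of 0.02 times the spread under that point. Of 25697 probes, 16446 above it on at least 1 array were tested.

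Groups were compared with limma 3.58.1 (lmFit, eBayes, 1 mean per group over 46 arrays) in R 4.3.3, with Benjamini-Hochberg adjustment, and the interaction was called on adjusted p alone. The thresholds (0.05 and 15%) follow the methods, whose own test, an ANOVA without moderation, was an alternative. Other alternatives were the normalization, background correction, filter, array weights, covariates, stricter thresholds, the replicate number as a block and each array left out. The labels do not name arrays' slides, and 1 array per mouse sets the precision. The fit was tested on simulated data. Members and gene lists were chosen with earlier results of these data known. All member probes were described. From each list the text names up to 4 genes called against AL with the largest change, or else the 2 with the lowest p. A few more list genes and markers were named after their values were seen. The brightest probe stood for a gene. Genes most like a member were taken for probes above background on every array. Python 3.11.15 with SciPy 1.17.1 and NumPy 2.4.6 was used for the rest, and matplotlib 3.10.9 for figures. Promoters came from RefSeq (GRCm38.p6).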

Additional observations from a re-analysis of the deposited data

How the results depend on the processing

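Of 22 changes of member probes that were called, 14 were called under each of 10 alternatives and 16 with each array left out, and none of the 22 changed direction. Pdha1 in Rapa against AL missed the threshold where arrays were centred and not divided by their SD, and the fall of Pdk4 in DR against AL where no probe was filtered. Quantile normalization ended the calls of Dld in Rapa + DR against DR, the brighter Pdhb probe in Rapa + DR against Rapa and the dimmer one in DR against AL, normexp correction the first and second of these, and the array SD as covariate those of the dimmer Pdhb probe in DR against AL, Pdk1 in DR against Rapa (adjusted p = 0.0649) and Dld in Rapa + DR against Rapa. The number of member probes called in DR against AL was 3 at a median difference over 30%, 2 at an adjusted p under 0.001 and 3 to 5 with an array left out. In Rapa + DR against DR it was 0 at 0.001, in Rapa + DR against Rapa 2 at 0.001, and in DR against Rapa 1 with the array SD as covariate, 1 at 30%, 0 at 0.001 and 1 to 2 with an array left out. The interaction called 1 probe, Pdha1, with array weights and 1 with the array SD as covariate. With the replicate number as a block, 1 probe rather than 3 was called in Rapa + DR against DR, without Pdk1 (adjusted p = 0.0551) and Dld (0.0604). Same-numbered arrays had a mean r of -0.0094 (-0.605 to 0.66) against 0.0028 for others. Between groups that mean ran from -0.103 (AL and DR) to 0.165 (AL and Rapa). A mean r near 0 does not settle whether the numbers pair mice.

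Some uncalled changes changed sign, among them Pdk2 at 0.33 in Rapa + DR against Rapa and 0.17 in DR against Rapa. With the array SD as covariate Dlat was -0.017 in DR against AL and -0.039 in DR against Rapa, and Pdk2 was -0.25 in Rapa + DR against AL, -0.011 in Rapa + DR against Rapa and -0.088 in DR against Rapa. With quantile normalization and with normexp correction Dlat was -0.023 and -0.025 in Rapa against AL, and Pdk2 -0.053 and -0.057 in Rapa + DR against AL. Centred and not divided by SD, Pdha1 was 0.32 in Rapa + DR against Rapa and 0.14 in DR against Rapa, and the brighter Pdhb probe 0.038 in DR against Rapa. Pdha1 was 0.018 in Rapa + DR against Rapa with the background level as covariate, and with array weights Dld was 0.017 and the dimmer Pdhb probe 0.015 in DR against Rapa. With an array left out, the range was -0.0023 to 0.050 for Dlat and -0.048 to 0.18 for Pdk4 in Rapa against AL, -0.037 to 0.029 for Pdha1 in Rapa + DR against Rapa, and in DR against Rapa -0.070 to 0.0081 for Dld, -0.069 to 0.024 for the brighter and -0.049 to 0.035 for the dimmer Pdhb probe. The cause was not tested.

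Scaling moved the balance over all probes: DR against AL had 1569 higher and 922 lower, 1339 and 1364 with quantile normalization and 1772 and 482 without division by the SD. Pdhx is limited by signal, and Dlat, Dld and Pdk4 lie near background.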
